A study of Mus musculus with 2 samples.

Results

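The TREM gene cluster on mouse chromosome 17 was described in open chromatin of primary megakaryocytes, the bone marrow cells that shed platelets. Its 5 members here are Trem1, Treml4, Treml2, Trem2 and Treml1, out of 21755 protein-coding genes in the annotation. They were chosen because the cluster places Treml1, a platelet gene, beside receptors of myeloid cells. All peaks that overlapped a member's gene body or lay within 50 kb of it were taken, which gave 1 unbroken window of 234.409 kb (chr17:48182768-48417176, mm10). Open chromatin was measured by ATAC-seq, in which a transposase cuts accessible DNA and tags it for sequencing. The series held 1 group of 2 biological replicates of 50000 cells each, from male C57BL/6J adults of 5 to 6 weeks, with no treatment named and no second cell type to compare with. Both replicates carry the same donor record, so the spread between them may be partly technical, and only the label of replicate 2 names sequencers.

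TREM proteins are cell surface receptors with an immunoglobulin domain. Most have a short tail and signal through the adaptor DAP12, which recruits the kinase SYK. Trem1 amplifies inflammation in neutrophils and monocytes. Trem2 senses lipids and debris in macrophages, microglia and osteoclasts. Treml2 is found on B cells and myeloid cells, and Treml4 on macrophages and dendritic cells, where it binds dead cells. Treml1 differs from these: it is stored in the alpha granules of megakaryocytes and platelets, has an inhibitory motif in its own tail and binds fibrinogen.

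The sequences just before the first start of each member, in either of 2 gene annotations, show what the results compare: 4 promoters that lay at or beside open regions and the Treml1 promoter, which did not. Each is 200 bases long, on the plus strand of GRCm38.p6, and none overlaps an annotated exon. Capitals mark words searched on both strands: AGATAA for GATA factors, AGGAAG for ETS factors, GAGGAAGT for the ETS factor PU.1 (it contains the ETS word), TGTGGT for RUNX factors, TTNNGCAA for C/EBP factors, TGANTCA for AP-1, CAGATG for factors of the E-box type and CCAAT for NF-Y. The stretches are chr17:48232513-48232712 for Trem1, chr17:48264000-48264199 for Treml4, chr17:48299190-48299389 for Treml2, chr17:48346201-48346400 for Trem2 and chr17:48359716-48359915 for Treml1.
Trem1: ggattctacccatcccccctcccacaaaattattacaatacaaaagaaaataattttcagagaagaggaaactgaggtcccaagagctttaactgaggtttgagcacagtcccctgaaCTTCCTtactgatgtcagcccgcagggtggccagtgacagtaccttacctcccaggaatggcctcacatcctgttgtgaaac
Treml4: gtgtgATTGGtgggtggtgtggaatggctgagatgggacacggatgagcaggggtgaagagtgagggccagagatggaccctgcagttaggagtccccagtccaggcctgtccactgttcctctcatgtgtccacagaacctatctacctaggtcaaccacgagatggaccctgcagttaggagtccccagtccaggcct
Treml2: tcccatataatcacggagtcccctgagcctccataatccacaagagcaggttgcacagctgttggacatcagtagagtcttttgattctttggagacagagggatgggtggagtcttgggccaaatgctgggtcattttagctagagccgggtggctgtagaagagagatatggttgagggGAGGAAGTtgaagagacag
Trem2: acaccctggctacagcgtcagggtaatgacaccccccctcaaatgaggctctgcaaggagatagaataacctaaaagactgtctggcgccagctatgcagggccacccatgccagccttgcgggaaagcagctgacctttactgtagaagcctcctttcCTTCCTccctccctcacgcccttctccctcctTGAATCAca
Treml1: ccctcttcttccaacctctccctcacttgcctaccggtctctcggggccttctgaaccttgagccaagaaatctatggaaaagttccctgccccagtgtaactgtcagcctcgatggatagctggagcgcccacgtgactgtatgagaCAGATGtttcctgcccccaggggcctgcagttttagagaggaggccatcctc
The ETS word stood at position 119 in Trem1, 183 in Treml2 and 160 in Trem2, counted from 1 at the left end. In Treml2 it was part of the longer PU.1 word at position 182, and Trem2 also held the AP-1 word at 192. The Treml4 stretch held the NF-Y word at position 6. The Treml1 stretch held the E-box word at position 149 and none of the other 7 words. Over the same 200 bases of 32619 promoters in RefSeq (GRCm38.p6), the ETS word was found in 24.9%, the PU.1 word in 2.07%, the AP-1 word in 5.51%, the NF-Y word in 29.5% and the E-box word in 11.5%. These matches are letters in a window and not measured binding.

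Replicate 1 had 49 listed peaks in the window, which merged into 33 regions, and replicate 2 had 41 peaks in 28 regions. Of these, 27 regions were found in both replicates and are called shared. The whole series had 69539 shared regions on chromosomes 1 to 19 and X. The window thus held 11.5 shared regions per 100 kb, compared with 2.72 per 100 kb across these chromosomes. Values below are fold enrichments at the summit over local background, as deposited, with mean ± SD over the 2 replicates. The files give peaks and no reads, so depth is unknown and a region that is not listed was not detected at that depth. In such bulk samples, a lower value from fewer cells with open DNA and one from less open DNA in each cell cannot be told apart.

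**Figure D1:**
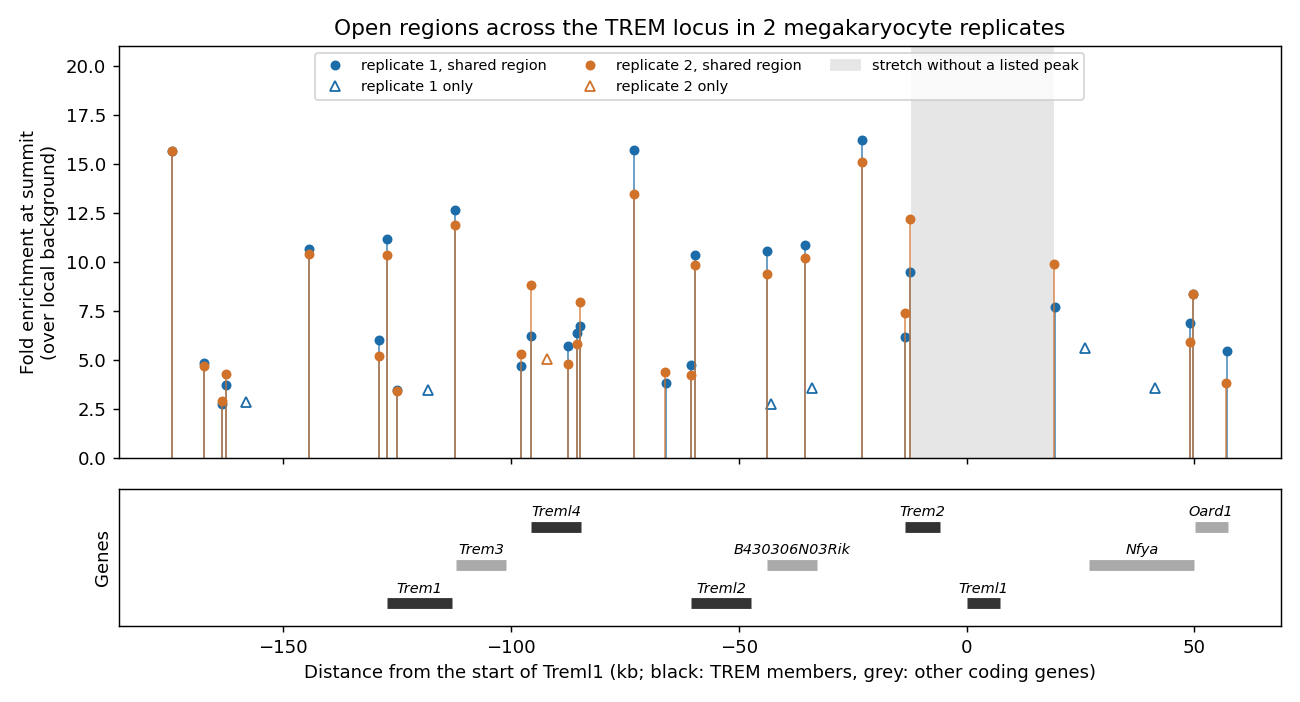
Fold enrichment at the summits of regions (vertical axis) against distance from the start of Treml1 in kb, for replicate 1 (blue) and replicate 2 (orange); filled circles are the 27 shared regions, open triangles the 7 regions of 1 replicate, and bars below are gene bodies. Treml1 lies in the grey stretch of 31.11 kb in which neither replicate has a listed peak.

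The promoters of the 4 myeloid members were open in both replicates, and that of Treml1 was not. A promoter was called open if both replicates had a region, shared between them, at most 500 bp from 1 of the gene's annotated starts, which held for 4 of 5 members and for 59.8% of all protein-coding genes. The promoter region of Trem1 had a fold enrichment of 11.2 in replicate 1 and 10.4 in replicate 2 (10.8 ± 0.571, n = 2; chr17:48232501-48232990). Its summit lay 0.052 kb before the start. Treml2 had 10.4 and 9.86 in its stronger region (10.1 ± 0.360; chr17:48299938-48301351), whose summit lay in an exon 0.906 kb past the gene's 5′ end, beside starts of shorter transcripts. A weaker region at the 5′ end itself had 4.75 and 4.24 (4.49 ± 0.361). Treml4 had 6.23 and 8.82 (7.52 ± 1.83; chr17:48263562-48264492), the widest spread of the 4 promoters. Trem2 had 6.19 and 7.39 (6.79 ± 0.849; chr17:48346222-48346732), with the summit 0.004 kb past the start.

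By the 500 bp rule, Trem1 and Treml2 were the higher pair in both replicates, and Treml4 and Trem2 the lower pair. Within the pairs, Trem1 was above Treml2 and Treml4 above Trem2 in each replicate. The gap between the means was larger than either SD for Trem1 and Treml2, and smaller than either SD for Treml4 and Trem2. All 4 were below the median of open protein-coding promoters, which was 11.5. Trem1, Treml2, Treml4 and Trem2 stood at or above 42.9%, 36.9%, 16.9% and 12.8% of open promoters. For Treml2 that place rests on the stronger region past the 5′ end. The Treml2 region at the 5′ end itself (4.49) was below the promoter regions of the other members. A Trem2 region with a part within 1 kb of a start, but outside the 500 bp, had 10.8 ± 1.93 and did not count. The order of the 4 thus depended on the 500 bp rule.

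**Figure D2:**
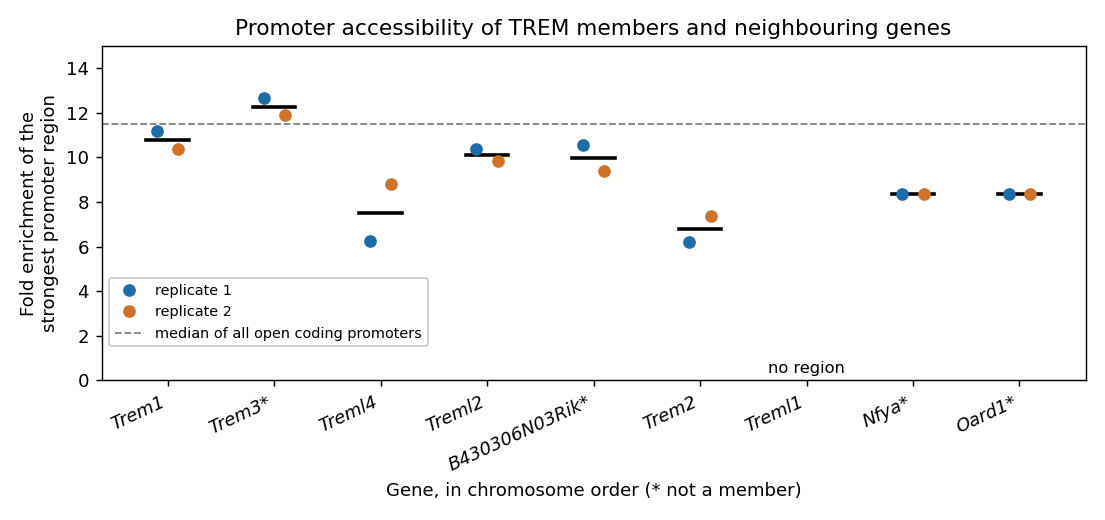
Fold enrichment of the strongest region within 500 bp of a start (vertical axis) for each member and each other coding gene of the window (marked *), in chromosome order; points are replicates, bars their means, and the dashed line is the median of all open coding promoters (11.5). Every gene shown but Treml1 has a value in both replicates.

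No region of either replicate overlapped the Treml1 gene body (chr17:48359916-48367176, plus strand) or its promoter. Treml1 is the only one of the 5 members without a region in its body, which was the case for 28.6% of protein-coding genes. The stretch without a peak ran over 31.11 kb (chr17:48347885-48378994), from 12.032 kb before the start of Treml1 to 11.819 kb past its 3′ end. It was the longest of 26 intervals between neighbouring shared regions in the window, of which the next was 29.451 kb and the median 6.477 kb. Across the genome the median interval was 8.877 kb, and 18.8% of intervals were at least as long. In distance from a start to the nearest shared region, 25.7% of all protein-coding genes were at least as far as Treml1. Among the 8751 genes without an open promoter this share was 63.8%, with a median distance of 27.478 kb. The distance of Treml1 was thus short for a gene without an open promoter and the empty stretch long for this window.

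None of the 12 deposited peak lists had a row in this stretch, and those lists reach down to peaks with a p-value of 0.00997. They include the lists called on both replicates pooled, which held up to 57 rows in the rest of the window. The limits of the stretch were set by the peak lists of the 2 replicates used here, which were therefore empty in it by construction. The other lists come from the same 2 samples and are not separate checks. Words of 50 bases were unique in the genome for 99.6% of positions in the Treml1 body and 98.9% within 1 kb of its start, compared with 91.9% over the window. Repeat-masked bases made up 31.7% of the stretch and 33.6% of the window. The authors also used a list of excluded regions, which was not used here, so whether it covers any of this stretch was not tested.

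The regions nearest to Treml1 belonged to Trem2 upstream and to no member downstream. Upstream, a region in the first part of Trem2, with its summit 1.10 kb past the Trem2 start, had 9.47 in replicate 1 and 12.2 in replicate 2 (10.8 ± 1.93; chr17:48346993-48347884). It was higher than the Trem2 promoter region in each replicate. Downstream, an intergenic region 19.3 kb past the start of Treml1 had 7.70 and 9.88 (8.79 ± 1.54; chr17:48378995-48379405). Replicate 1 alone listed a region 26.1 kb past the start, with 5.63. Both shared regions were higher in replicate 2, by 0.37 and 0.36 on the log2 scale, as was the Trem2 promoter by 0.26.

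The sequences around the summits of the nearest regions to each side of Treml1 are shown, of those with no exon in the bases shown. Each has 201 bases, on the plus strand of GRCm38.p6, with words in capitals as above. The upstream one is chr17:48336953-48337153, and the downstream one chr17:48379134-48379334.
Upstream: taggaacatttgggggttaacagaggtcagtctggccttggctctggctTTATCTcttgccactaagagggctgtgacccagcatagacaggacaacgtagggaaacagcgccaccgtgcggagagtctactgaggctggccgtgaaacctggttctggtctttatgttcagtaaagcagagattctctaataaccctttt
Downstream: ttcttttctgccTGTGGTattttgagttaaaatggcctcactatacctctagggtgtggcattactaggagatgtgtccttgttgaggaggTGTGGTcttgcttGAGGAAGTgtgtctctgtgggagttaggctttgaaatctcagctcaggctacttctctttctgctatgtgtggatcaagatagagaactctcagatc
The upstream sequence, 9.35 kb before Trem2 and 22.9 kb before the start of Treml1, held the GATA word at position 50. Its region had 16.2 in replicate 1 and 15.1 in replicate 2 (15.6 ± 0.786), more than any promoter in the window. Trem2 and the regions in it lie between that region and Treml1. A link of either shown region to Treml1 was not tested. The downstream sequence held the RUNX word at 13 and 92 and the PU.1 word at 105, and 30.3% of its bases were repeat-masked.

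Trem1 and Treml4 had further regions in or next to the gene. Before Trem1, a region at 1.90 kb had 6.05 and 5.21 (5.63 ± 0.592). A region in its intron, 2.04 kb past the start, was weak with 3.47 and 3.40 (3.44 ± 0.0482). Replicate 1 alone had a region of 3.49 in the Trem1 body, 8.98 kb past the start. Treml4 had the most shared regions in its body, 4 compared with 2 in each of Trem1, Treml2 and Trem2. One lay at an internal start 8.09 kb into the gene (5.73 and 4.78, 5.25 ± 0.669). Another was intronic at 10.013 kb (6.39 and 5.84, 6.11 ± 0.388), and the last lay in an exon at 10.8 kb, at the 3′ end (6.74 and 7.97, 7.35 ± 0.869). A region 2.26 kb before Treml4 had 4.70 and 5.31 (5.01 ± 0.434), and replicate 2 alone had one of 5.08 in its body.

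The 3 strongest regions of the window were intergenic, and their order differed between replicates. By the mean, the highest lay 47.4 kb before Trem1 (15.7 and 15.6, 15.7 ± 0.0153), at chr17:48185162-48185789. In replicate 1 the region 9.35 kb before Trem2 was above it, with 16.2. In the region before Trem1, 46.3% of bases were repeat-masked and 98.8% of 50-base words were unique. The region 9.35 kb before Trem2 followed, and then one 12.5 kb before Treml2 (15.7 and 13.4, 14.6 ± 1.60; chr17:48286843-48287552), of which 61.7% was repeat-masked. The promoter of Trem3 (12.7 and 11.9, 12.3 ± 0.545) and the region in the first part of Trem2 completed the highest 5. That Trem2 region had a part within 1 kb of a start, and in replicate 1 (9.47) it was below the Trem1 promoter (11.2). The 3 intergenic regions were the only shared regions of the window above 14-fold, and 9 regions were above 10-fold. The lowest of the 3 (14.6) stood at or above 93.0% of all shared regions. The lowest of the 9 (10.1) stood at or above 72.0% of them. By class, 12 of the 27 had a part within 1 kb of a start, 11 were intergenic, 2 lay in introns and 2 in exons. Over all shared regions, these classes made up 29.9%, 29.8%, 36.4% and 3.88%, in the same order.

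The other coding genes with a start in the window were open at their promoters. Trem3, a receptor gene between Trem1 and Treml4, is given above. B430306N03Rik, which RefSeq also lists as Treml6, had 10.6 and 9.40 (9.98 ± 0.827), in a region where 62.6% of 50-base words were unique, the lowest share among the 27. Nfya, which encodes a subunit of the factor that binds CCAAT, and Oard1, an ADP-ribose hydrolase gene, shared 1 region between their opposed starts (8.35 and 8.36, 8.35 ± 0.00825). Treml1 was thus the only coding gene of the 9 in the window without an open promoter. Beyond the window on the Trem1 side, A530064D06Rik had 11.6 ± 0.552 and 9830107B12Rik, which RefSeq also lists as Trem5, had 10.2 ± 0.307. On the Nfya side, Apobec2, a cytidine deaminase family gene of muscle, had no open promoter and Tspo2, an erythroid cholesterol-binding protein gene, had 6.69 ± 0.178.

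Counted within 50 kb of each gene body, Trem1 and Treml4 had 16 shared regions each, Treml2 had 14, Treml1 had 9 and Trem2 had 8. Neighbouring members share most of their windows, so these counts are not independent. Per 100 kb, Treml4 had 14.4, Trem1 14.02, Treml2 12.4, Treml1 8.39 and Trem2 7.42, against a median of 4.93 over all protein-coding genes and an upper quartile of 8.40. Treml1 was therefore near the upper quartile by its surroundings, while its own body was empty.

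The 27 shared regions were chosen by their overlap between replicates, so some agreement of the replicates was built in. The median fold enrichment was 6.74 for replicate 1 and 7.97 for replicate 2. The median of the means was 7.35, compared with 7.52 over all shared regions. None differed by more than 1.5-fold, which 3.57% of all shared regions did. Replicate 2 was higher in 10 of 27, compared with 59.0% of all shared regions. The log2 ratio of replicate 2 to replicate 1 ran from -0.52, at a region in Oard1, to 0.50, at the Treml4 promoter. Summits lay within 40 bp of each other in 26 of 27 regions. The median distance between the summits was 10 bp, compared with 8 bp over all shared regions. Regions of 1 replicate numbered 6 in replicate 1, of its 33, and 1 in replicate 2, of its 28. Genome-wide, 10.7% of replicate 1 regions and 13.8% of replicate 2 regions had no partner. Lists thresholded on the irreproducible discovery rate (IDR) for both samples contained 13 of the 27, compared with 53.3% of all shared regions. The Trem1 promoter and the stronger Treml2 region past the 5′ end were among the 13. The Treml2 region at the 5′ end itself and the promoters of Treml4 and Trem2 were in neither sample's list. The region in the first part of Trem2 and the one downstream of Treml1 were in the list of replicate 2 alone.

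**Figure D3:**
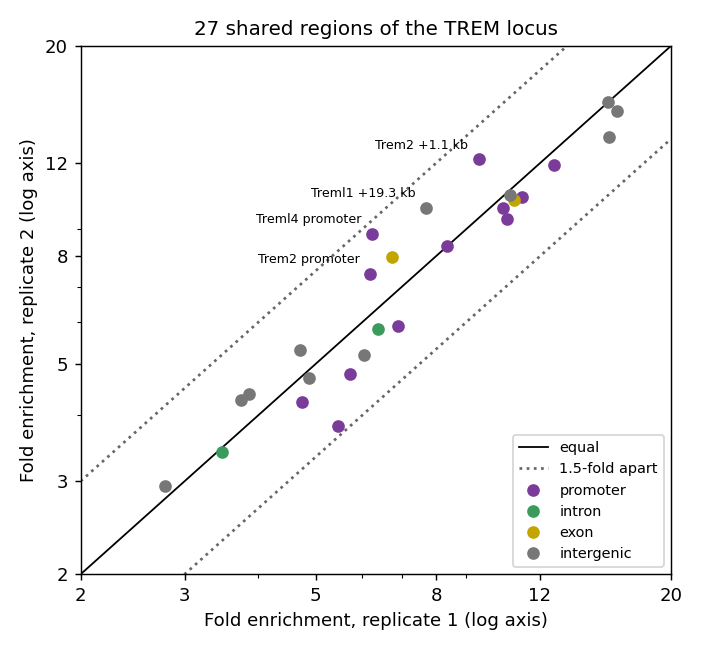
Fold enrichment in replicate 1 (horizontal) and replicate 2 (vertical), on log axes, for the 27 shared regions, coloured by class; the solid line marks equal values and the dotted lines a 1.5-fold difference. All regions lie between the dotted lines, and the 4 named regions are those with the highest ratio of replicate 2 to replicate 1.

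Within 100 bp of the summits, words for blood cell factors were counted in the 27 regions and in all shared regions. The ETS word was in 15 of 27 (46.2% of all shared regions) and the PU.1 word in 3 (10.2%). The GATA word was in 3 (7.88%), at the region 9.35 kb before Trem2 and at 2 regions in or just before Treml4, and the RUNX word in 5 (22.0%). The C/EBP word was in 2 (13.4%), the AP-1 word in 3 (9.16%) and the E-box word in 4 (14.6%). The NF-Y word was in 3 (22.9%), 1 of them the region of Nfya and Oard1, which held 3 copies. The CTCF motif was in 0 (9.8%) and the IRF motif in 0 (3.46%). These counts are small and were not tested, and the shares are not matched for class. Promoter regions made up 44.4% of the 27 and 29.9% of all shared regions. The ETS word, for example, was in 34.5% of all promoter regions and 51.2% of all others.

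The genes through which the members signal were mostly open, and the fibrinogen genes, which encode the ligand of Treml1, were not. Of 23 listed genes of DAP12 and TREM signalling, ligands and shedding proteases, 19 had an open promoter (82.6%, against the 59.8% of all coding genes), with fold enrichments from 4.44 to 21.2. The highest were the adaptor gene Grb2 (21.2 ± 0.375), the lipid kinase gene Pik3cd (15.1 ± 0.224) and Adam10, a protease that sheds receptors (14.7 ± 0.342). Tyrobp, which encodes DAP12, had 7.61 and 7.88 (7.75 ± 0.194), Hcst, which encodes the related adaptor DAP10, had 5.74 and 5.73 (5.73 ± 0.00712), and Syk had 13.9 and 12.5 (13.2 ± 0.938). The 4 genes without an open promoter were Clu, which encodes clusterin, a ligand of TREM2, and Fga, Fgb and Fgg, the fibrinogen chains, which are made in the liver. In the pseudoreplicated list of the pooled samples, an alternative added after seeing the data, Clu had a region at its promoter and the 3 fibrinogen genes had none.

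The label of the cells was checked on marker promoters. Of 11 genes that define megakaryocytes, 4 had an open promoter (36.4%, against the 59.8% of all coding genes). These were Itga2b (13.5 ± 0.584), Vwf (9.39 ± 0.348), Itgb3 (7.62 ± 0.655) and Pf4 (4.56 ± 0.696). No shared region lay at the starts of Gp1ba, Gp1bb, Gp5, Gp6, Gp9, Selp or Clec1b, as far as 500 bp from them, but Clec1b and Gp5 had one within 1 kb (at 0.841 and 0.870 kb), which made the count 6 of 11. The count was 5 in replicate 1 and 6 in replicate 2 taken singly, 7 in the replicated-peaks list of the pooled samples and 3 in the IDR lists. The share over all coding genes was not computed for these alternatives. Neutrophil genes were open at 9 of 10 promoters (all but Elane, from 4.91 to 11.8) and monocyte and macrophage genes at 8 of 10 (all but Marco and C1qa, from 5.64 to 14.1). Hepatocyte genes were open at 0 of 8. Under the same alternatives, added after seeing the data, the neutrophil count stayed at 9 and the monocyte and macrophage count at 7 or 8. The megakaryocyte count therefore depended on the window and the list, and was below both other counts as a share in each. The open myeloid TREM promoters and the Treml1 promoter without a region stand beside that difference, and the part of other cells in them was not tested. Treml1 lay 12.032 kb from a shared region, and of the 11 megakaryocyte genes only Gp6 was farther, at 29.34 kb.

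**Figure D4:**
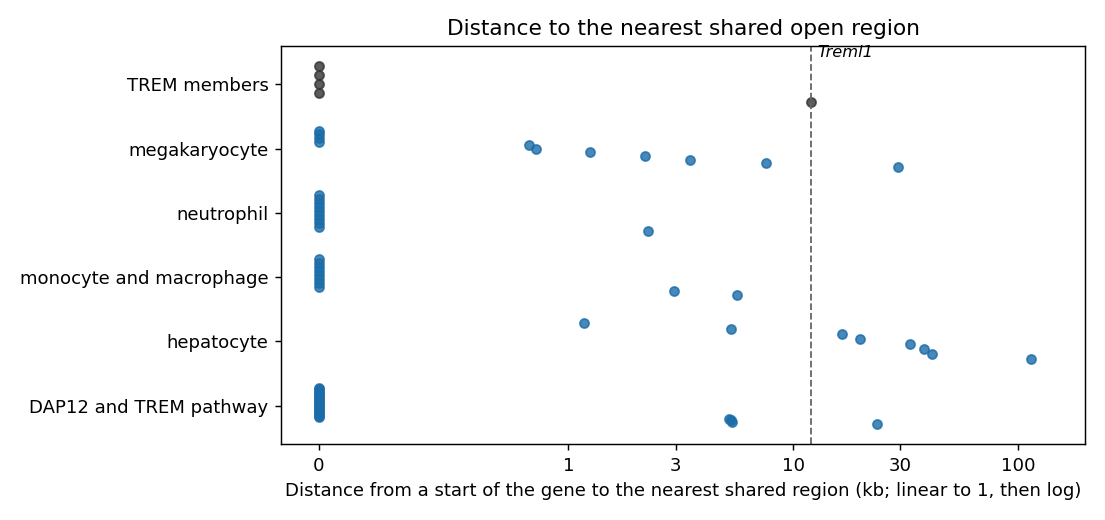
Distance in kb from a start of each gene to the nearest shared region (horizontal axis, linear to 1 and then log) for the members and the listed gene groups, 1 point a gene; the dashed line is Treml1 at 12.032 kb. The 4 other members lie at 0, and 1 megakaryocyte gene and 6 of 8 hepatocyte genes lie beyond Treml1.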

How the data were processed

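Peak lists of 2 ATAC-seq samples of mouse megakaryocytes, which formed 1 group, were used. The authors called peaks on mm10 from filtered alignments, per the deposited file records. Neither peak caller nor aligner is named, and their versions are not given in the sources used here. In the deposited lists, column 7 is a ratio, the peak's fold enrichment relative to local background, and columns 8 and 9 hold its −log10 p-value and q-value, both read from the peak format. Lists were called per sample or on the pooled samples. No scaling between samples is stated. With 0 columns unmapped, each value belonged to a sample or to the pool.

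Peaks of a list overlapping by 1 bp were merged, keeping the highest fold enrichment and its summit. A shared region is the union of regions that overlap between replicates by 1 bp. Genes and starts were those of GENCODE M21. Regions with a part within 1 kb of a start were classed as promoter, the others by their summit. The genome was GRCm38.p6 from RefSeq, the same assembly as mm10, and 0 peaks ran past a chromosome end. The promoter table of RefSeq held 4 of the 5 members, each equal to the genome sequence. The word searches used the summit of the replicate with the higher fold enrichment. With 1 group of 2 samples there was no test between groups, and all values are descriptions. No read counts were given, so depth and intervals are unknown.

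Members and gene lists were chosen with earlier results of these data known, and 1 gene of the megakaryocyte list is not reported here, so that counts for this list are over the other 11. Named genes were the 5 members, the coding genes with a start in the window, and of the signalling list the 3 highest promoters and all without one; the genes beyond the window, and Tyrobp, Hcst and Syk, were added after their values were seen. Regions within 5 kb of a member and the 5 highest were described. The search of all 12 lists was also added after seeing the data. The steps were tested on simulated data. Python 3.11.15, pandas 2.3.3, numpy 2.4.6 and matplotlib 3.10.9 were used.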

Additional observations from a re-analysis of the deposited data

How the results depend on the processing

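Treml1 had no open promoter under any of the 12 alternatives that gave member promoters, and Trem1 and Treml2 were open under all 12. No deposited list had a row in the stretch around Treml1. Its result was therefore fixed for all 12, which are not separate checks of it. With the IDR lists of each sample, the promoters of Treml4 and Trem2 were lost, so that 2 members were open, Treml2 by its stronger region. The window then had 13 shared regions with a median fold enrichment of 10.5 and 4 regions of 1 replicate. The median was 5.89 in the replicated-peaks list of the pooled samples, 8.42 in the conservative list and 8.57 with peaks of at least 4-fold enrichment. Of the 27 shared regions, 23 were in the conservative list, compared with 57689 of all 69539 shared regions. Leaving out 1 replicate gave 28 to 33 regions and a median of 6.19 to 7.68. Both times 4 members were open, and so were 19 genes of the list of signalling, ligand and protease genes. The count for that list was 16 with the IDR lists of each sample, which lost Zap70, Btk and Lat2. It was 18 with the conservative list and with peaks of at least 4-fold enrichment, which lost Zap70. With 50% reciprocal overlap it was also 18, without Adam10, and with the 5′ end as the only start it was 17. Within 50 bp of the summit, the GATA, AP-1 and E-box words were each in 1 region and the RUNX word in 3. The other 60 of 73 values of the TREM results stayed within 1.5 times the reported count or within the replicate SD of the median. No paired analysis was possible because there is 1 group and no contrast between groups. Depth is unknown, so a peak that is absent from a list is a limit of detection that cannot be put in numbers.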
